A study of Mus musculus with 36 samples.

Results

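The genes that coat the lipid droplet of the liver cell and break down its triglyceride were followed through a fast and a refeeding. The members were 10 genes, taken by symbol: Pnpla2, Pnpla3, G0s2, Abhd5, Lipe, Mgll, Plin2, Plin4, Plin5 and Cidec. The deposited count table held them all, 10 of 38283 genes, and all 10 were among the 13945 genes with enough counts to test. Liver RNA was sequenced from 36 male C57Bl/6J mice aged 16 weeks on a chow diet, 18 wild-type and 18 heterozygous for the knock-in mutation Pik3r1 Y657* (WT/Y657*), a truncation of the regulatory subunits of phosphoinositide 3-kinase that act below the insulin receptor. The mutation is germline, so every tissue carries it. In each genotype 6 mice were fed ad libitum, 6 were fasted for 16 h, and 6 were fasted for 16 h and then refed chow for 6 h. Each mouse was killed at a single time, so no animal was followed from state to state. In whole liver, fewer cells of a type and less RNA per cell cannot be told apart.

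Triglyceride in a lipid droplet is removed stepwise. Adipose triglyceride lipase, encoded by Pnpla2, takes off the first fatty acid, with Abhd5 (CGI-58) as its activator and G0s2 as its inhibitor. Hormone-sensitive lipase (Lipe) acts mainly on diglyceride, and monoglyceride lipase (Mgll) on the last ester bond. The perilipins Plin2, Plin4 and Plin5 coat the droplet, and Cidec (FSP27) promotes the growth of droplets by fusion. Pnpla3 encodes a close relative of adipose triglyceride lipase that sits on droplets and is known in liver as a target of insulin and of the lipogenic factor SREBP-1c.

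Libraries held between 8839488 and 19542775 counts, with a median of 13596665.5. Levels are given as CPM, a library's counts on a common scale of library size adjusted by TMM, and a gene was called changed at an adjusted p under 0.05, where adjusted p means the Benjamini-Hochberg value, over all genes tested, from the quasi-likelihood test of edgeR. The paper describes the fed and fasted wild-type mice as littermates of the WT/Y657* mice. The labels do not say which mice shared a litter or cage, so litter could not enter the fit. Mice are named by the number in their labels, with WT_ for wild-type and MT_ for WT/Y657*, and the numbers followed the groups in part. Fasted and refed mice of each genotype came from a lower and a higher series of numbers, 3 mice from each, and fed mice had numbers between these series. Fed mice were numbered apart by genotype for the most part, wild-type below WT/Y657*, and only the numbers WT_856 to WT_860 held both genotypes, with 2 wild-type and 3 WT/Y657* mice. Pik3r1 itself was not called between genotypes in any state, with a log2 difference of 0.04 (SE 0.10) in fed, 0.05 (SE 0.10) in fasted and 0.23 (SE 0.10) in refed mice. A gene's total count cannot check a point mutation.

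The livers showed hepatocyte markers at high levels in every library, with Alb between 30026 and 69947 CPM. Several members are best known from fat tissue, so markers of adipocytes were examined. Lep was at 0 counts in 35 of 36 libraries, Plin1 in 30, Adipoq in 24 and Retn in 21. The summed level of 7 adipocyte markers ranged from 1.95 to 11.3 CPM in fed wild-type, 1.41 to 5.23 in fed WT/Y657*, 3.18 to 13.2 in fasted wild-type, 1.55 to 6.41 in fasted WT/Y657*, 1.65 to 7.68 in refed wild-type and 0.726 to 4.97 CPM in refed WT/Y657* mice. Of the 2 of these markers with enough counts to test, none was called in any comparison.

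Each member lies in a region annotated on GRCm38 (GENCODE M21). Pnpla2 is on chromosome 7 at 141455198 to 141460743, Pnpla3 on chromosome 15 at 84167837 to 84187236, G0s2 on chromosome 1 at 193272161 to 193273217 and Abhd5 on chromosome 9 at 122351608 to 122381524. Lipe is on chromosome 7 at 25379527 to 25398710, Mgll on chromosome 6 at 88724412 to 88828360, Plin2 on chromosome 4 at 86648386 to 86670060 and Cidec on chromosome 6 at 113424634 to 113435760. Plin4 (chromosome 17, 56100591 to 56109803) and Plin5 (chromosome 17, 56111601 to 56117596) are neighbours on the same strand, 1798 bp apart. An exon of Pnpla3 overlaps an exon of Gm49513 on the same strand, so reads there could belong to either gene. Exons of Abhd5, Lipe, Mgll and Plin4 overlap genes on the opposite strand, and the counting settings for strand are not given in the sources used here, so a part of their counts is uncertain.

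The region just before the transcription start was read for the members whose response to food or genotype the results turn on. Pnpla3, the member called between genotypes in fed mice, is shown with a cAMP response element (TGACGTCA) in capitals, 46 bases before the start. Plin2, the most abundant droplet coat gene per kilobase in fasted liver and one that differed by genotype, is shown with a nuclear receptor hexamer (AGGTCA on the other strand) in capitals, 218 bases before the start. Mgll, which rose on fasting and stayed high on refeeding, is shown with a forkhead motif (GTAAACA) 241 bases and an E box (CACGTG) 44 bases before the start, both in capitals. The sequences are the 250 bases before each RefSeq start on GRCm38.p6, written 5′ to 3′ on the gene's strand, at chr15:84167566-84167815 (+), chr4:86670060-86670309 (−) and chr6:88724162-88724411 (+).
Pnpla3: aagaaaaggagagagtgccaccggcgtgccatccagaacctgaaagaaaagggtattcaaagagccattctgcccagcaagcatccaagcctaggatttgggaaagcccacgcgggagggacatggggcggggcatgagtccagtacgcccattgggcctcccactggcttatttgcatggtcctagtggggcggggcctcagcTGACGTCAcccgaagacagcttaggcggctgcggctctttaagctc
Plin2: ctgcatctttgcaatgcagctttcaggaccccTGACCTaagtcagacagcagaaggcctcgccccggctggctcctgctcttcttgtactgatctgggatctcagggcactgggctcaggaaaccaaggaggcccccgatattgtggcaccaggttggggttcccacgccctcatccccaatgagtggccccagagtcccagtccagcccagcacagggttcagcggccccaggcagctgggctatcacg
Mgll: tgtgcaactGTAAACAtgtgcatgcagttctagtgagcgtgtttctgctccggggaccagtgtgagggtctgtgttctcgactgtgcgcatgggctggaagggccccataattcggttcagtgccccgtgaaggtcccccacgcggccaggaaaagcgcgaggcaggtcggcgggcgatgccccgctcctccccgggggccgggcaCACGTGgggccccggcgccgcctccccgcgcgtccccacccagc

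Motifs were searched on both strands of 14 such windows, at least 1 for each of the 10 members. The cAMP response element stood in 1.55% of 32851 promoters of the same length, the nuclear receptor hexamer AGGTCA in 14.02%, the E box in 6.02% and the forkhead motif in 3.17%. Besides the windows printed, the hexamer stood in a window of Abhd5 and of Plin5, and an E box and a forkhead motif in separate windows of Lipe. No window of a member held the PPAR direct repeat (a pair of the hexamers with 1 base between them, 0.0335% of promoters), the sterol response element TCACNCCAC (1.05%) or the TATA box TATAAA (12.4%). Pnpla2, G0s2, Plin4 and Cidec held none of the motifs searched. The hexamer also forms part of the direct repeat. A match describes letters in the window and nothing more.

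Per kilobase of exon, the members spanned a wide range of levels. In fed wild-type liver the order by mean CPM per kilobase was Plin2 at 104 ± 13.1 (SD, n = 6), G0s2 at 55.4 ± 22.9, Mgll at 32.1 ± 3.07, Plin5 at 17.6 ± 2.85, Pnpla2 at 9.61 ± 1.10 and Abhd5 at 5.99 ± 0.67. Below these stood Lipe at 2.75 ± 0.59, Cidec at 1.56 ± 1.33, Plin4 at 1.55 ± 0.77 and Pnpla3 at 1.06 ± 1.06 CPM per kilobase. The last 3 of these did not differ beyond their spread. Pnpla3 was measured thinly, with 1 to 240 counts per library, against 3183 to 19641 for Plin2. The plot of the level of each gene in each liver shows all 36 mice.

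**Figure D1:**
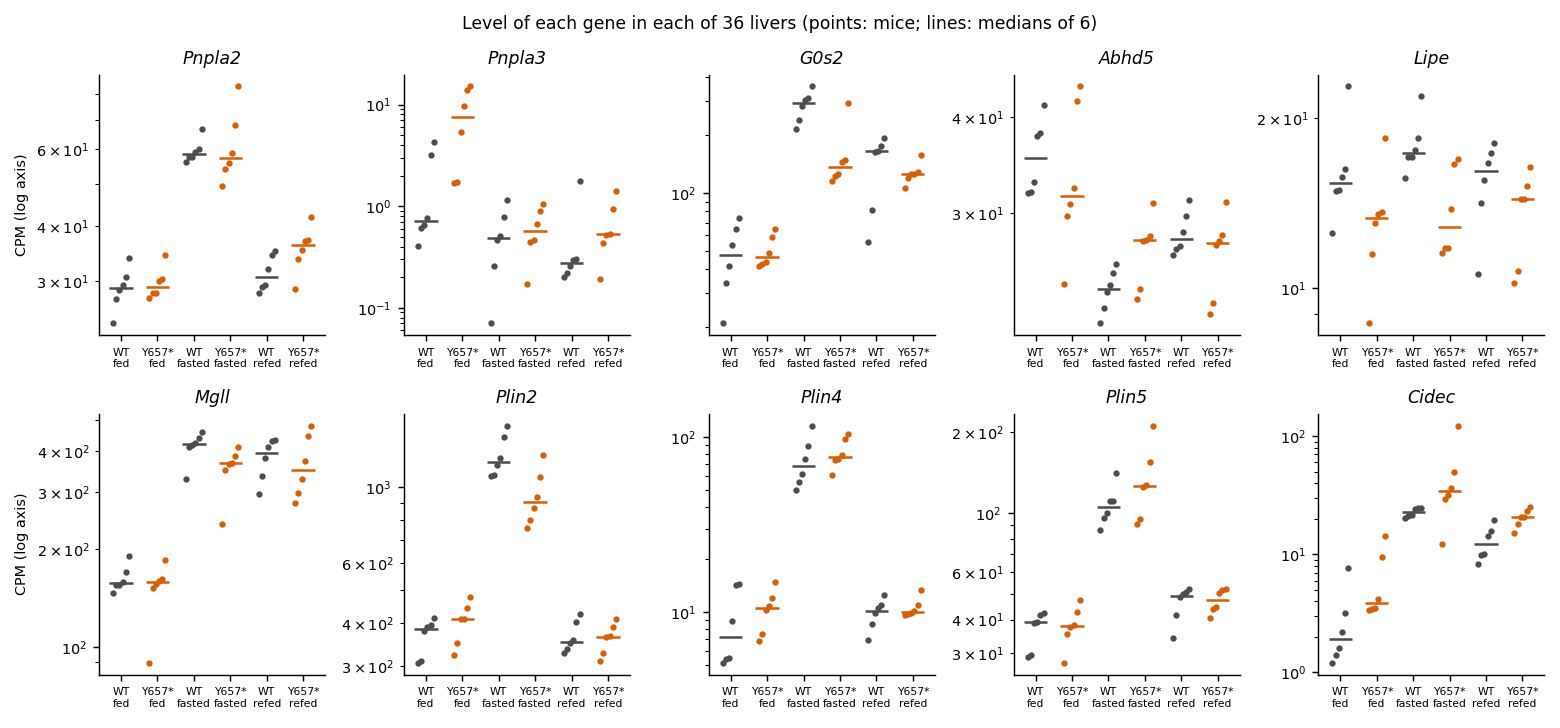
CPM of each of the 10 genes (log axis, separate scale per panel) in every mouse, with wild-type in grey, WT/Y657* in orange and a line at the median of each group of 6. Plin2, Plin4, Plin5 and Pnpla2 stand high in fasted mice of both genotypes and return on refeeding, Mgll stays high in refed mice, and Pnpla3 is highest in fed WT/Y657* mice.

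Fasting raised most of the droplet coat and lipolysis genes in wild-type liver, among them the 3 perilipins, Cidec and the lipases Pnpla2 and Mgll. In wild-type mice 7 of 10 members rose and 1 fell, against 14.5% of all genes tested that were higher and 17.5% that were lower. In WT/Y657* mice 7 rose and 2 fell, against 15.2% and 17.7% of all genes. The members' median log2 change was 1.45 in wild-type and 1.23 among WT/Y657* mice, beside 0.01 and −0.01 over all genes tested. Without regard to direction, 32% of all genes were called in wild-type and 32.9% among WT/Y657* mice. Fasted and fed mice did not overlap in 8 of 10 members in wild-type, against 17.6% of all genes, and in 7 of 10 in WT/Y657* mice, against 11.5%. No fed mouse had a number in either series, so feeding state and mouse number cannot be told apart in any comparison with fed mice. The paper states that livers were taken before the overnight fast, after it, or after refeeding. Feeding state and time of day therefore cannot be told apart in any comparison between states.

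Among the coat genes, Plin4 changed most. Its CPM in wild-type liver had a lowest, median and highest value of 5.14, 7.17 and 14.4 in fed mice and 49.5, 68.3 and 116 in fasted mice. In WT/Y657* liver the values were 6.81, 10.5 and 14.8 in fed and 60.6, 76.8 and 104 in fasted mice. Every fasted mouse of either genotype was above every fed one. The log2 change was 3.05 (SE 0.25, adjusted p = 2.43e-11) in wild-type and 2.97 (SE 0.24, adjusted p = 3.79e-11) in WT/Y657* mice. With only the fasted mice of the lower or of the higher numbers against the same fed mice it was 3.37 and 2.62 in wild-type and 2.98 and 2.97 in WT/Y657* mice.

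Plin2 is the perilipin that coats droplets in most cells, and Plin5 the one that ties droplets to mitochondria. Plin2 stood at 306, 383 and 414 CPM (lowest, median, highest) in fed and at 1074, 1186 and 1510 in fasted wild-type mice, with no overlap. WT/Y657* values stood at 323, 411 and 478 in fed and at 758, 901.3 and 1239 in fasted mice, again with no overlap. The log2 change was 1.76 (SE 0.12, adjusted p = 2.70e-14) in wild-type and 1.23 (SE 0.11, adjusted p = 9.65e-11) in WT/Y657* mice.

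Plin5 rose from 28.99, 39.1 and 42.2 CPM in fed to 86.6, 105 and 141 in fasted wild-type mice. The WT/Y657* levels went from 27.6, 37.8 and 47.3 to 90.5, 126 and 211 CPM. The groups did not overlap in either genotype, and the log2 change was 1.55 (SE 0.16, adjusted p = 3.07e-09) in wild-type and 1.81 (SE 0.16, adjusted p = 1.33e-10) in WT/Y657* mice.

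Cidec, the droplet fusion protein, held as few as 15 counts in a fed library and rose on fasting. Its CPM was 1.21, 1.91 and 7.72 in fed and 20.4, 22.8 and 24.6 in fasted wild-type mice. Values in WT/Y657* mice were 3.41, 3.85 and 14.4 in fed and 12.2, 34.1 and 123 in fasted mice. The wild-type groups did not overlap, whereas in WT/Y657* mice 1 fasted mouse (MT_921, at 12.2) was below the highest fed one. The log2 change was 2.99 (SE 0.48, adjusted p = 1.15e-05) in wild-type and 2.86 (SE 0.43, adjusted p = 4.36e-06) in WT/Y657* mice. The highest fed wild-type value came from mouse WT_856, whose adipocyte markers summed to 11.3 CPM, the highest of the fed mice, and the change was 3.53 without it. The part of adipocyte RNA in Cidec levels was not tested.

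The lipases differed in their response. Pnpla2, which takes the first fatty acid off triglyceride, stood at 24.05, 29.03 and 33.9 CPM in fed and at 56.2, 58.5 and 66.8 in fasted wild-type mice, and at 27.5, 29.1 and 34.4 in fed and 49.6, 57.2 and 83.4 in fasted WT/Y657* mice. No fasted mouse overlapped a fed one of its genotype, and the fold was 2.05 in wild-type (adjusted p = 1.04e-10) and 2.07 in WT/Y657* mice (adjusted p = 9.46e-11). Mgll rose 2.54-fold in wild-type (adjusted p = 1.58e-09) and 2.34-fold in WT/Y657* mice (adjusted p = 1.11e-08). Its CPM went from 147, 158 and 191 to 328, 421 and 460 in wild-type and from 89.7, 158 and 186 to 240, 368 and 414 in WT/Y657* mice, with no overlap. Lipe was not called, with a log2 change of 0.16 (95% interval −0.15 to 0.46) in wild-type and 0.06 (−0.25 to 0.37) among WT/Y657* mice.

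The partners of adipose triglyceride lipase moved in opposite directions. The inhibitor G0s2 rose from 20.9, 47.6 and 74.3 CPM in fed to 216, 293 and 357 in fasted wild-type mice, a log2 change of 2.56 (SE 0.28, adjusted p = 2.23e-08). The rise in WT/Y657* mice was from 41.4, 46.1 and 64.6 to 116, 136 and 293 CPM, a log2 change of 1.66 (SE 0.28, adjusted p = 2.01e-05). The fasted and fed groups did not overlap in either genotype. The activator Abhd5 fell from 31.9, 35.4 and 41.4 to 21.6, 23.97 and 25.8 CPM in wild-type mice, with no overlap and a log2 change of −0.58 (SE 0.10, adjusted p = 3.47e-05). Abhd5 in WT/Y657* mice went from 24.3, 31.6 and 43.8 to 23.2, 27.7 and 30.98 CPM, groups that overlapped, with a log2 change of −0.33 (SE 0.10, adjusted p = 0.0129). That call was lost without fed mouse MT_858 (−0.26, adjusted p = 0.0530) or MT_859 (−0.24, adjusted p = 0.0685), and with only the fasted mice of the higher numbers (−0.29, adjusted p = 0.121).

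Pnpla3 ran against Pnpla2 and Mgll, with a fall that edgeR's quasi-likelihood test called only in WT/Y657* mice. In WT/Y657* mice its CPM fell from 1.70, 7.50 and 15.1 in fed to 0.171, 0.566 and 1.05 in fasted mice, with no overlap and a log2 change of −3.63 (SE 0.63, adjusted p = 2.93e-05). In wild-type mice it stood at 0.408, 0.711 and 4.24 in fed and at 0.0702, 0.484 and 1.16 in fasted mice, which overlapped, and the log2 difference of −1.68 (SE 0.69, adjusted p = 0.0614) was not called. It was called by DESeq2 (adjusted p = 0.0485) and by edgeR's likelihood ratio test (adjusted p = 0.0457). Fasted wild-type libraries held only 1 to 11 counts of Pnpla3.

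**Figure D2:**
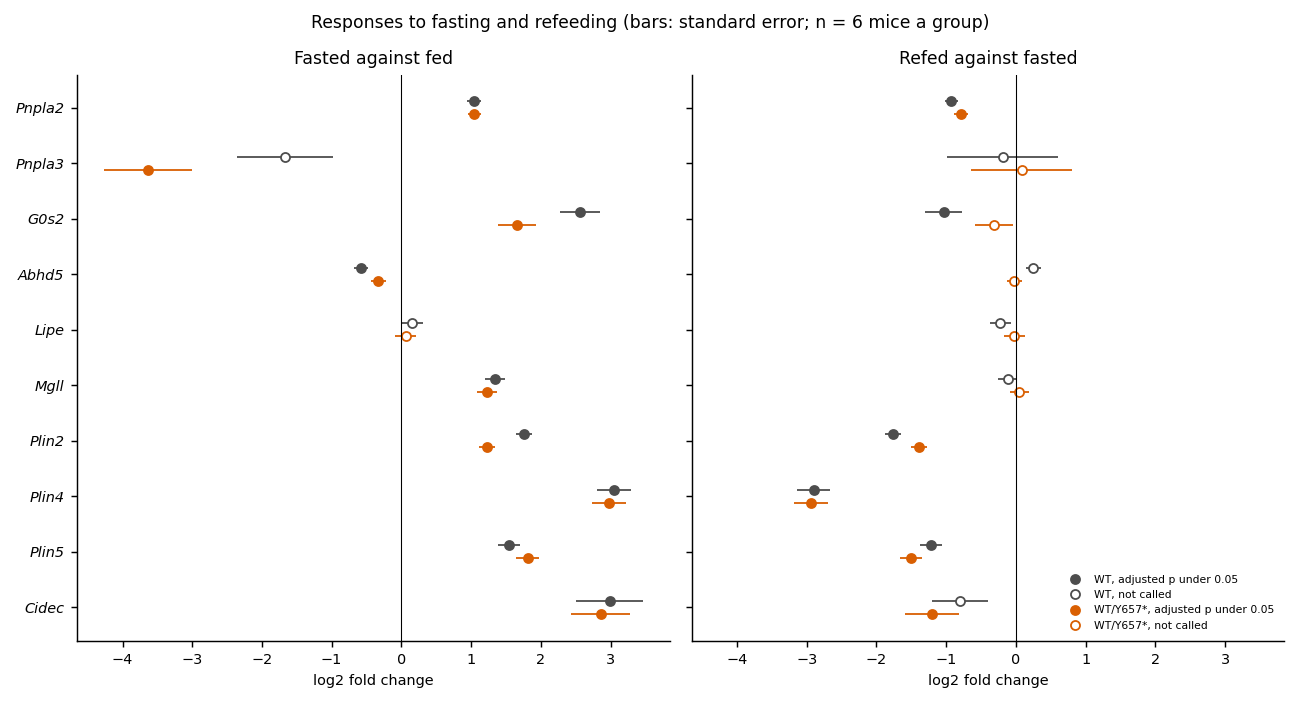
Log2 fold change with its standard error for the 10 genes, fasted against fed (left) and refed against fasted (right), in wild-type (grey) and WT/Y657* mice (orange), n = 6 mice a group, with filled points for an adjusted p under 0.05. Fasting points lie to the right of 0 for 7 genes in both genotypes, near it and unfilled for Lipe, and to the left for Abhd5 and Pnpla3. On refeeding Mgll and Lipe stand near 0.

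Refeeding for 6 h reversed the rise of the coat genes and of Pnpla2 but not that of Mgll. In wild-type mice 5 of 10 members fell and none rose, against 13.7% of all genes tested that were lower. In WT/Y657* mice 5 fell and none rose, against 14.2% of all genes. Counting both directions, 30.2% of all genes were called in wild-type and 31.3% among WT/Y657* mice, and the members' median log2 change was −0.86 and −0.55. These comparisons use the same fasted mice as the fasting response, so a high fasted value enters both. Time of day again went with feeding state, and its part was not tested.

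Plin4 fell to 6.90, 10.2 and 12.5 CPM in refed wild-type and 9.57, 10.01 and 13.3 in refed WT/Y657* mice, log2 changes of −2.90 (SE 0.24) and −2.94 (SE 0.24). Plin2 fell to 328, 353 and 425 CPM in wild-type and 311, 364 and 410 in WT/Y657* mice, log2 changes of −1.76 (SE 0.12) and −1.39 (SE 0.11). Plin5 fell by 1.22 on the log2 scale (SE 0.16) in wild-type and by 1.51 (SE 0.16) in WT/Y657* mice. Pnpla2 fell by 0.92 (SE 0.10) and 0.79 (SE 0.10) on the log2 scale. For these 4 genes refed and fasted mice did not overlap in either genotype, against 7.73% of all genes in wild-type and 4.96% among WT/Y657* mice that were lower without overlap, and the highest adjusted p was 3.82e-07.

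Mgll stayed at its fasted level. It stood at 297, 396 and 433 CPM in refed wild-type and 278, 351 and 480 in refed WT/Y657* mice. The log2 difference from fasted mice was −0.12 (95% interval −0.40 to 0.17) in wild-type and 0.05 (−0.23 to 0.33) among WT/Y657* mice, and refed mice were still 2.34-fold (adjusted p = 5.58e-08) and 2.43-fold (adjusted p = 1.68e-08) above fed ones, with no overlap.

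G0s2 and Cidec returned part of the way. G0s2 stood at 55.2, 164 and 192 CPM in refed wild-type mice, a log2 change of −1.04 from fasted mice (SE 0.27, adjusted p = 0.00353) with no overlap. Within the lower numbers that change was −0.88 (adjusted p = 0.132) and within the higher numbers −1.19 (adjusted p = 0.0462). Refed WT/Y657* mice stood at 106, 125 and 158 CPM, −0.32 from fasted mice (95% interval −0.86 to 0.23), which was not called. Against fed mice, refed G0s2 was still higher by 1.53 (SE 0.28) and 1.34 (SE 0.27) on the log2 scale, with adjusted p of 0.000108 and 0.00045.

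Cidec stood at 8.29, 12.2 and 19.5 CPM in refed wild-type and 15.04, 20.7 and 25.2 in refed WT/Y657* mice. In WT/Y657* mice its log2 change on refeeding was −1.20 (SE 0.39, adjusted p = 0.0181). Without fasted mouse MT_827, which held 123 CPM of Cidec, the value was −0.64 (adjusted p = 0.168), and within the higher numbers −0.63 (adjusted p = 0.515). In wild-type mice every refed mouse was below every fasted one, and the log2 difference of −0.80 (SE 0.40, adjusted p = 0.138) was not called when all groups shared one estimate of the spread. With only refed and fasted wild-type mice in the fit it was called (−0.80, adjusted p = 0.00338). Against fed mice, refed Cidec was higher by 2.19 (SE 0.48) in wild-type and 1.66 (SE 0.42) in WT/Y657* mice on the log2 scale, with adjusted p of 0.00099 and 0.00405.

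Lipe, Abhd5 and Pnpla3 were not called on refeeding in either genotype. Abhd5 in refed wild-type mice stood at 26.5, 27.8 and 31.2 CPM, above every fasted wild-type mouse, with a log2 difference of 0.25 (SE 0.10, adjusted p = 0.0656). It was called with only the groups compared in the fit (0.25, adjusted p = 0.0100), with the number series as a covariate (0.25, adjusted p = 0.0220) and when scaled by library size alone (0.32, adjusted p = 0.0209). Refed against fed, Abhd5 differed by −0.33 (SE 0.10, adjusted p = 0.0146) in wild-type and −0.35 (SE 0.10, adjusted p = 0.0105) in WT/Y657* mice on the log2 scale, the latter not called without fed mouse MT_859 (adjusted p = 0.0535). Pnpla3 stood at 0.202, 0.276 and 1.75 CPM in refed wild-type and 0.193, 0.527 and 1.41 in refed WT/Y657* mice. Refed against fed, it differed by −3.55 (SE 0.61, adjusted p = 5.07e-05) in WT/Y657* mice, with no overlap, and by −1.86 (SE 0.69, adjusted p = 0.0419) in wild-type mice. The wild-type call was lost without any 1 of fed mice WT_856 and WT_860 or of refed mice WT_815, WT_816, WT_896, WT_900 and WT_901, with values from −1.76 to −1.28. In the comparison of refed with fed mice 5 of 10 members were called in wild-type and 6 among WT/Y657* mice, against 27.5% and 26.1% of all genes. Pnpla2 was among the 6, higher by 0.26 (SE 0.10, adjusted p = 0.0424), a call lost without any 1 of 9 of the 12 mice. Plin2, Plin4, Plin5 and Lipe were called in neither genotype refed against fed, with log2 differences from −0.07 for Lipe to 0.33 for Plin5 in wild-type and from −0.16 for Plin2 to 0.30 for Plin5 in WT/Y657* mice.

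Between genotypes, fed mice differed in 1 of 10 members, Pnpla3, against 2.37% of all genes called. Pnpla3 CPM was 0.60, 0.65, 0.77 and 0.41 in wild-type mice WT_847 to WT_850 and 3.18 and 4.24 in wild-type mice WT_856 and WT_860. It was 5.39, 1.70 and 1.72 in WT/Y657* mice MT_857, MT_858 and MT_859 and 14.1, 9.602 and 15.1 in WT/Y657* mice MT_866, MT_868 and MT_869. The 3 mice with the highest numbers were the highest and the 4 with the lowest numbers the lowest, and the genotypes overlapped among the 5 mice between them.

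The log2 difference of Pnpla3 in fed mice was 2.25 (SE 0.56, adjusted p = 0.0270). Within the numbers WT_856 to WT_860, the only ones that hold both genotypes, it was −0.34 (SE 0.58) and not called, the opposite direction, with 2 wild-type and 3 WT/Y657* mice. In the other numbers, genotype and mouse number cannot be told apart. The call was also lost without any 1 of mice WT_847, WT_848, WT_849, WT_850, MT_866, MT_868 and MT_869, with values from 1.96 to 2.19 and adjusted p from 0.0559 to 0.0874.

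Markers of macrophages and Kupffer cells moved with Pnpla3 in part. The summed level of 5 such markers (Clec4f, Cd5l, Vsig4, Adgre1 and Cd68) ranged from 178 to 248 CPM in fed wild-type and from 171 to 601 in fed WT/Y657* mice, and in the WT/Y657* mice MT_866, MT_868 and MT_869 it was 499, 601 and 387 CPM. Mouse MT_857 had a Pnpla3 level of 5.39 with a marker sum of 171, the lowest, and mouse MT_859 a Pnpla3 level of 1.72 with a marker sum of 375. The fed wild-type mice highest in Pnpla3, WT_856 (3.18) and WT_860 (4.24), had marker sums of 178 and 210. Mouse WT_849, with the highest wild-type sum of 248, had a Pnpla3 level of 0.77. None of the 5 markers was called between the genotypes in fed mice, and their median log2 difference was 0.77. Of 6 stellate cell markers, Dcn was higher in fed WT/Y657* mice (0.43, SE 0.12, adjusted p = 0.0407), and none of 5 endothelial, 4 cholangiocyte and 5 erythroid markers was called. The part of these cells in the Pnpla3 level was not tested.

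**Figure D3:**
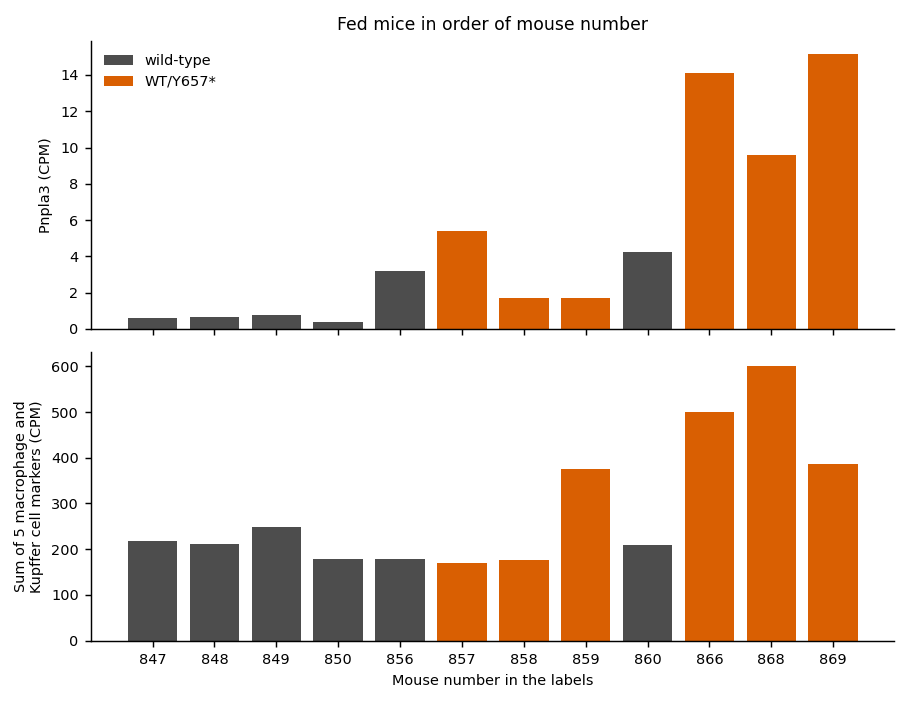
Pnpla3 CPM (top) and summed CPM of 5 macrophage and Kupffer cell markers (bottom) in the 12 fed mice in order of mouse number, one bar a mouse, with wild-type in grey and WT/Y657* in orange. Pnpla3 is highest in WT/Y657* mice MT_866, MT_868 and MT_869, while mice WT_856 to WT_860 of both genotypes hold between 1.70 and 5.39 CPM.

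The other 9 members were not called between genotypes in fed mice. The nearest was Cidec, with a log2 difference of 1.19 (SE 0.50, adjusted p = 0.201), and within the numbers WT_856 to WT_860 it was −0.53. The remaining 8 had log2 differences from −0.29 for Lipe to 0.21 for Plin4.

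Fasted mice differed by genotype in 2 of 10 members, G0s2 and Plin2, both lower in WT/Y657* liver, against 6.63% of all genes that were lower and 13.1% called in either direction. Neither pair of groups was free of overlap. The members' median log2 difference was 0.09, beside 0.0021 over all genes. Of 6 stellate cell markers only Dcn (0.42, SE 0.12, adjusted p = 0.0150) was called, higher in fasted WT/Y657* mice, with a list median of 0.17. Of 5 endothelial markers only Lyve1 (1.32, SE 0.39, adjusted p = 0.0218) was called, also higher, with a list median of −0.02. The summed adipocyte markers had a median of 6.02 CPM in fasted wild-type and 2.80 in fasted WT/Y657* mice. The part of these cell types in the differences of G0s2 and Plin2 was not tested.

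G0s2 in fasted wild-type mice was 304, 216 and 238 CPM in the lower numbers (WT_807, WT_824 and WT_825) and 310, 357 and 283 in the higher numbers (WT_918, WT_919 and WT_920). In fasted WT/Y657* mice it was 116, 293 and 126 CPM in the lower numbers (MT_806, MT_826 and MT_827) and 145, 122 and 149 in the higher numbers (MT_921, MT_922 and MT_923). Mouse MT_826 stood among the wild-type values, and the other 5 WT/Y657* mice were below all 6 wild-type mice. The log2 difference was −0.85 (SE 0.27, adjusted p = 0.0330), and −1.12 without mouse MT_826 (adjusted p = 0.00470). Within the lower numbers it was −0.51 (adjusted p = 0.486) and within the higher numbers −1.19 (adjusted p = 0.166). The call was lost without any 1 of WT/Y657* mice MT_806, MT_827, MT_921, MT_922 and MT_923 or wild-type mice WT_807, WT_918 and WT_919, with values from −0.83 to −0.77 and adjusted p from 0.0520 to 0.0897.

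Plin2 was lower by 0.39 on the log2 scale in fasted WT/Y657* mice (−0.39, SE 0.11, adjusted p = 0.0172), a ratio of 0.762. In the lower numbers the wild-type mice stood at 1084, 1216 and 1155 and the WT/Y657* mice at 758, 1070 and 1239 CPM, and in the higher numbers at 1074, 1397 and 1510 against 800, 866.1 and 937 CPM. The groups overlapped in the lower and not in the higher numbers, where the differences were −0.18 (adjusted p = 0.551) and −0.62 (adjusted p = 0.0554). The call was lost without mouse MT_806 (−0.34, adjusted p = 0.0616) or mouse WT_920 (−0.33, adjusted p = 0.0574).

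For the other 8 members no genotype difference was called in fasted mice. Cidec was 1.06 higher on the log2 scale (SE 0.39, adjusted p = 0.0711), with WT/Y657* mice spread from 12.2 to 123 CPM against 20.4 to 24.6 in wild-type mice, and it was called without mouse MT_921, the lowest (1.25, adjusted p = 0.0209), and it was 0.49 (adjusted p = 0.403) without mouse MT_827, the highest. Mouse MT_827 was also the highest of its group in Pnpla2 (83.4 CPM), Plin2, Plin5 (211 CPM) and Mgll (414 CPM). Lipe stood at 15.7, 17.3 and 21.9 CPM in wild-type and 11.5, 12.8 and 16.97 in WT/Y657* mice, a log2 difference of −0.39 (SE 0.15, adjusted p = 0.0856). Within the lower numbers the Lipe difference was −0.68 (adjusted p = 0.0471) and within the higher numbers −0.13 (adjusted p = 0.853). Plin5 differed by 0.32 (SE 0.15, adjusted p = 0.180), Mgll by −0.22 (adjusted p = 0.303) and Pnpla2 by 0.05 (95% interval −0.15 to 0.24).

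In refed mice none of the 10 members was called between genotypes by edgeR's quasi-likelihood test, against 0.0287% of all genes, which is 4 genes. At an unadjusted p under 0.05 the number of members was also 0, and DESeq2, edgeR's likelihood ratio test and limma-voom each called 0. The share of all genes under these other rules was not computed. The smallest unadjusted p was that of Pnpla2 (0.0638), with a log2 difference of 0.19 (95% interval −0.01 to 0.38). The interval for Plin2 was −0.25 to 0.21 and for G0s2 −0.67 to 0.42.

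**Figure D4:**
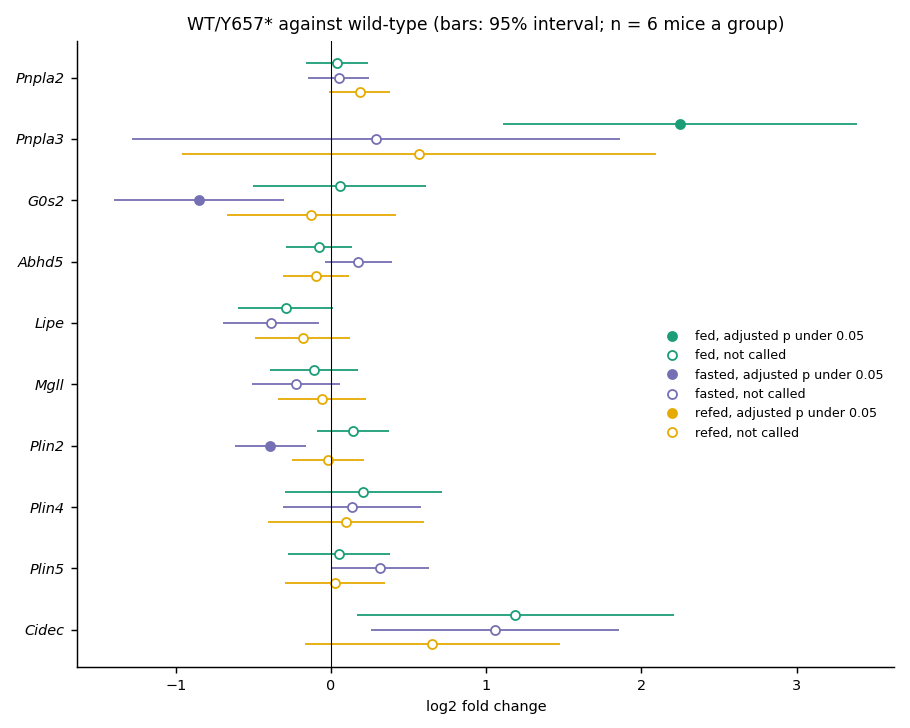
Log2 difference of WT/Y657* against wild-type mice with its 95% interval for the 10 genes in fed (green), fasted (purple) and refed mice (yellow), n = 6 a group, with filled points for an adjusted p under 0.05. Filled points are Pnpla3 in fed mice and G0s2 and Plin2 in fasted mice, and the interval of Pnpla3 in fasted and refed mice spans over 3 log2 units.

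The genotype difference in the fasting response was tested directly. It was called for 1 of 10 members, Plin2, against 4.35% of all genes. Plin2 rose by 0.53 less on the log2 scale in WT/Y657* mice (−0.53, SE 0.16, adjusted p = 0.0471). The differences were −0.31 (adjusted p = 0.421) with only the fasted mice of the lower and −0.75 (adjusted p = 0.0854) with only those of the higher numbers, and the call was lost without any 1 of 16 of the 24 mice, with values between −0.55 and −0.47. The differences for G0s2 (−0.90, SE 0.38, adjusted p = 0.182) and Pnpla3 (−1.96, SE 0.97, adjusted p = 0.264) were not called, and that of Pnpla2 was 0.01 (95% interval −0.27 to 0.29). The refeeding response differed by genotype in none of the 10 members by edgeR's quasi-likelihood test, against 2.06% of all genes. At an unadjusted p under 0.05 there was 1 member, Plin2 (0.37, SE 0.16, adjusted p = 0.236), and DESeq2, the likelihood ratio test and limma-voom each called 0. For these rules too the share of all genes was not computed.

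The ratio of the inhibitor to the lipase, G0s2 counts over Pnpla2 counts, does not depend on library size. The counts were not divided by gene length, so its values are not ratios of transcript numbers. In fed mice its lowest, median and highest values were 0.683, 1.82 and 2.71 in wild-type and 1.26, 1.56 and 2.15 in WT/Y657* mice. In fasted mice they were 3.74, 4.96 and 5.34 in wild-type and 1.51, 2.34 and 5.25 in WT/Y657* mice. In refed mice they were 1.89, 5.05 and 6.79 in wild-type and 2.97, 3.45 and 4.47 in WT/Y657* mice.

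The log2 ratio was 1.62 higher in fasted than in fed wild-type mice (exact permutation test, two-sided, p = 0.00216, adjusted over 7 comparisons 0.0152), and that p is the smallest that 6 against 6 mice allow. In WT/Y657* mice it was 0.57 higher (exact permutation p = 0.0606, adjusted 0.141). The difference between genotypes in fasted mice was −0.93 (exact permutation p = 0.0108, adjusted 0.0379). Pnpla2 was not called between these groups, so this test reuses the G0s2 difference in the same mice and is not separate evidence. In the lower numbers the ratio was 5.26, 3.74 and 4.23 in wild-type and 2.14, 5.25 and 1.51 in WT/Y657* mice, and in the higher numbers 5.22, 5.34 and 4.71 against 2.93, 1.78 and 2.54. The genotype call was lost without any 1 of the 11 mice other than MT_826, with adjusted p from 0.0505 to 0.0758, and it was −1.15 without mouse MT_826 (adjusted p = 0.0101). Without mouse MT_826 the change on refeeding in WT/Y657* mice, 0.53 with all mice (adjusted p = 0.155), became 0.74 (adjusted p = 0.0101).

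**Figure D5:**
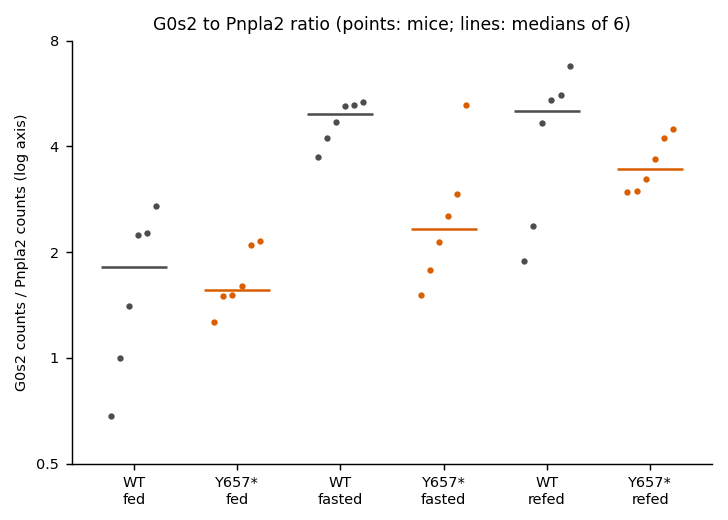
G0s2 counts divided by Pnpla2 counts (log axis) in every mouse, with a line at the median of each group of 6, wild-type in grey and WT/Y657* in orange. Fasted wild-type mice lie between 3.74 and 5.34, and 5 of 6 fasted WT/Y657* mice lie at or below 2.93 with 1 mouse at 5.25.

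Among mice of one group, some members varied together. After removal of group means, Pearson's r was past an adjusted p of 0.05 (permutation within groups, 100000 resamples) in 8 of 45 pairs of members over 36 mice, all 8 positive, and 2 of these were also past it on Spearman's rho (6 when scaled by library size alone). Plin4 and Cidec had r = 0.56 (permutation p = 0.00107, adjusted 0.0245) and rho = 0.63 (permutation p = 0.0003, adjusted 0.0135), and r = 0.47 without the 2 mice farthest from the median of Plin4. Within the fed mice, the lower and the higher numbers their r was 0.77, 0.02 and 0.80. Mgll and Plin2 had r = 0.54 (permutation p = 0.00127, adjusted 0.0245) and rho = 0.51 (permutation p = 0.00213, adjusted 0.0479), r = 0.40 without the 2 farthest mice, and 0.68, 0.67 and 0.40 within the 3 sets of numbers. The other 6 pairs were Abhd5 with Mgll, Plin2 with Plin5, Pnpla2 and Cidec, Mgll with Plin5, and Pnpla2 with Cidec. Levels in one library share its scaling.

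Across all 36 mice, the likeness of other genes to a member was measured by Pearson's r of log2 CPM, as a description, and is given for 8 of the 10 members. Mgll was most like Ech1, Acadm and Decr1 (r = 0.97 for each), and these kept r of 0.82, 0.81 and 0.85 after removal of group means. Plin2 and Pnpla2 were most like 2410001C21Rik (0.95 for both), Plin4 like Tmem56 (0.96), Plin5 like Pxmp4 (0.95), Cidec like Tor1b (0.87) and Lipe like Clcn2 (0.65). After removal of group means r was 0.65 for Plin2, 0.61 for Pnpla2, 0.30 for Plin4, 0.68 for Plin5, 0.48 for Cidec and 0.58 for Lipe. Among the genes most like Pnpla3 were Tfpi2 (0.79), Plvap (0.77), Cyp2c55 (0.75) and Nqo2 (0.74), and these fell to between 0.42 and 0.56 after removal of group means.

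Other genes of the droplet and its lipolysis were read from 4 lists. Of 19 other coat and droplet-forming genes tested, 6 rose and 3 fell on fasting in wild-type and 5 rose and 5 fell in WT/Y657* mice, beside 14.5% of all genes higher and 17.5% lower in wild-type and 15.2% and 17.7% in WT/Y657* mice. Fitm2, which helps bud droplets from the endoplasmic reticulum, rose by 1.09 (SE 0.10) and 0.87 (SE 0.10) on the log2 scale, and Hsd17b13, a droplet-bound enzyme of liver, by 0.69 (SE 0.11) and 0.83 (SE 0.11). Acsl3, an acyl-CoA synthetase of nascent droplets, changed by −0.64 (SE 0.17) and −1.24 (SE 0.17). Between fasted genotypes none of the 19 was higher and 5 were lower in WT/Y657* mice, Cideb by −0.34 (SE 0.08), Pcyt1a by −0.29 (SE 0.08), Acsl3 by −0.60 (SE 0.17), Mettl7a1 and Fitm2, beside the 6.63% of all genes. The list's median difference was −0.16.

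Of 17 other lipases tested, 6 rose and 4 fell on fasting in wild-type and 4 rose and 4 fell in WT/Y657* mice, beside the 32% and 32.9% of all genes called. The lysosomal acid lipase Lipa rose by 0.71 (SE 0.08) and 0.34 (SE 0.08) on the log2 scale and Pnpla8 by 0.43 (SE 0.06) and 0.45 (SE 0.06), while the carboxylesterase Ces3b changed by −0.997 (SE 0.17) and −0.91 (SE 0.17). Between genotypes, 1 was higher in fed WT/Y657* mice (Lipa, 0.30, SE 0.08, adjusted p = 0.0398), beside 2.37% of all genes called. In fasted mice, where 13.1% of all genes were called, 1 was higher (Pnpla6, 0.32) and 2 were lower, the hepatic lipase Lipc by −0.75 (SE 0.16) and Ces1g by −0.96 (SE 0.23).

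Of 15 genes of adrenergic and cAMP control, 5 rose and 1 fell on fasting in wild-type and 3 rose and 2 fell in WT/Y657* mice, shares near the 32% and 32.9% of all genes called. The adenylate cyclase Adcy6 rose by 1.36 (SE 0.14) and 0.74 (SE 0.13) on the log2 scale. The cAMP phosphodiesterase Pde4b changed by 0.63 (SE 0.20) in wild-type and by −1.09 (SE 0.20) in WT/Y657* mice, and this difference of responses was called (−1.72, SE 0.29, adjusted p = 0.00103). Its CPM was 8.97, 13.1 and 17.98 in fed wild-type and 18.3, 26.5 and 29.8 in fed WT/Y657* mice, groups that did not overlap (adjusted p = 0.0110). In fasted mice 3 of the 15 were lower in WT/Y657* mice, Pde4b (−0.76, adjusted p = 0.0128), Gnas and Prkacb, beside 6.63% of all genes. The listed genes, unlike the members, were not refitted within mouse numbers or without single mice.

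Of 10 transcription factors known to act on members, 4 rose and 3 fell on fasting in wild-type and 3 rose and 3 fell in WT/Y657* mice, again beside 32% and 32.9% of all genes called. Ppara, the fatty acid sensor that drives fasting genes, rose by 0.70 (SE 0.10) and 0.50 (SE 0.10) on the log2 scale, and Srebf1, the lipogenic factor, changed by −2.58 (SE 0.20) and −3.81 (SE 0.21), a difference that was called (−1.24, SE 0.27, adjusted p = 0.00775). In fasted mice, where 6.63% of all genes were lower, 3 of the 10 were lower in WT/Y657* mice, Ppara by −0.55 (SE 0.10, adjusted p = 0.000328), Srebf1 by −1.07 (SE 0.19, adjusted p = 0.000374) and Foxo3 by −0.34 (SE 0.09, adjusted p = 0.00793). Foxo3 was also lower in fed WT/Y657* mice (−0.31, adjusted p = 0.0458). In refed mice none of the genes of the 4 lists was called between genotypes, beside only 0.0287% of all genes called.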

How the data were processed

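Liver RNA of 36 mice was sequenced as stranded total RNA in single reads. The deposited table holds estimated counts per gene, of which 3.64% of the nonzero ones were not whole, and they were rounded before testing. The labels name featureCounts for counting and also Cuffdiff, SAMtools and edgeR, with versions not given in the sources used here. The column names of the deposited table end as those of Cuffquant files do, so which tool made these counts is not settled. The labels name mm9, but 36217 of 36341 gene identifiers found in GENCODE M21 had a locus overlapping the same gene on GRCm38, so coordinates are given on that build. A second deposited table of the authors' fitted values was not used. The use of strand in counting is not given in the sources used here.

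The test was edgeR's quasi-likelihood test (edgeR 4.0.16, limma 3.58.1, R 4.3.3) with TMM scaling, filterByExpr and 1 coefficient for each of 6 groups of 6 mice, which left 13945 genes and 30 residual degrees of freedom. Each contrast was adjusted by Benjamini-Hochberg over all genes tested at a threshold of 0.05, with a common biological coefficient of variation of 0.181. The p-values measure the spread between mice, and counting error is largest for Pnpla3. Log2 CPM used a prior count of 2. The ratio of G0s2 to Pnpla2 counts, each plus 0.5, was tested by all 924 arrangements of 6 against 6 mice. Correlations were permuted within groups. Some genes are not reported here.

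The members, gene lists and tests were chosen with earlier results of these data known. The genes named were the 10 members, all tested in every comparison, with those not called given in part as ranges or counts. From each of 4 lists some of the called genes were named, for the most part among those with the smallest adjusted p. Sequences were matched by symbol to RefSeq promoters on GRCm38.p6, and all 10 members were found. Exon length was that of all GENCODE transcripts merged. Alternatives were DESeq2 1.42.0, the likelihood ratio test, limma-voom, other scalings and filters, only the groups compared, the number series, and each mouse left out. On simulated counts for the genotype comparison in fasted mice, with 13810 genes, the test recovered 187 of 200 changed genes (87% at a log2 change of 1 and 100% at 2), with 11 false calls among 198. The changed genes were drawn from those above a minimum mean count. Changes smaller than 1, such as those of Plin2 and G0s2 between fasted genotypes, were not simulated. Among 90 pairs of mice of a group none had counts that agreed within sampling noise (lowest chi-square per degree of freedom 6.70). Scripts used Python 3.11.15, numpy 2.4.6, scipy 1.17.1 and matplotlib 3.10.9.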

Additional observations from a re-analysis of the deposited data

Results flagged for a closer look

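In 60 groups of 6 mice (10 members in 6 groups), 9 held a mouse that stood apart from the other 5 by Dixon's test at the 95% level, where chance gives about 1 in 20, or 3. Among wild-type mice, fasted mouse WT_919 held 66.8 CPM of Pnpla2 against 56.2 to 60.0 in the others, and refed mouse WT_828 held 1.75 CPM of Pnpla3 against 0.202 to 0.303. Fed mouse WT_848 held 22.8 CPM of Lipe against 12.5 to 16.3, and fed mouse WT_856 held 7.72 CPM of Cidec against 1.21 to 3.16. Fasted mouse WT_807 held 328.4 CPM of Mgll against 413.3 to 460.0.

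Among WT/Y657* mice, fasted mouse MT_826 held 292.7 CPM of G0s2 against 115.6 to 148.8 in the others. Fasted mouse MT_827 held 122.7 CPM of Cidec against 12.2 to 49.7. Mgll was low in fasted mouse MT_806, at 239.8 CPM against 350.1 to 413.7, and in fed mouse MT_866, at 89.7 CPM against 152.5 to 186.0.

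The response of Plin2 to fasting differed between genotypes by the test of the difference itself, with a log2 difference of −0.53 (SE 0.16, adjusted p = 0.0471).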

How the results depend on the processing

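Of 110 log2 differences (10 members in 11 comparisons), 42 were called and 31 of these were called under every alternative. Apart from leaving out a mouse, 1083 alternative values were computed, of which 1047 stayed on their side of the threshold, 38 of them uncalled values that changed sign. A further 27 lost the call, 8 gained one and 1 called value, Pnpla3 between fed genotypes within the numbers WT_856 to WT_860 (−0.34), changed direction. The count of members called between fed genotypes (1) was 0 with limma-voom, with no filter, with at least 10 counts in every library (where Pnpla3 was not tested), with only the groups compared and within the numbers WT_856 to WT_860. Between fasted genotypes the count (2) was 1 with no filter, where G0s2 was lost, and with only the groups compared, where Plin2 was lost. Within the lower numbers it was also 1, but there G0s2 and Plin2 were both lost and Lipe was gained. Within the higher numbers it was 0. The genotype difference in the fasting response (1) was 0 with the likelihood ratio test, with only the groups compared and with only the fasted mice of either number series. Refed against fed wild-type mice, 5 members were called and 3 when scaled by library size alone, where the median of all genes was 0.094. Under that scaling the median shifted most in another comparison, to 0.108 between fed genotypes. The cause of these changes was not tested.

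With each mouse left out in turn, the count was 0 to 1 between fed, 0 to 2 between fasted and 0 between refed genotypes. It was 8 to 9 on fasting in either genotype, 5 on refeeding in wild-type and 4 to 5 in WT/Y657* mice, 4 to 5 refed against fed in wild-type and 4 to 6 in WT/Y657* mice, 0 to 1 for the difference in fasting response and 0 for that in refeeding response. The log2 ratio of G0s2 to Pnpla2 ranged from −1.15 to −0.79 between fasted, −0.13 to 0.27 between fed and −0.40 to −0.03 between refed genotypes. On fasting it ranged from 1.38 to 1.78 in wild-type and 0.35 to 0.71 in WT/Y657* mice, and on refeeding from −0.37 to −0.0050 and from 0.38 to 0.74. No paired analysis was possible because no mouse number occurs in 2 groups and the labels do not name the litters. Depth limits Pnpla3, which had as few as 1 count in a library.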
